A study of Mus musculus with 4 samples.

Results

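Immunoglobulin transcripts were examined in the left ventricle of KDM5B knockout (KO) and wild-type (WT) mice after myocardial infarction (MI). The arrays carried 44 probes for 25 gene names beginning with Igh, Igk, Igl or Igj, out of 41174 probes, once the unrelated genes Ighmbp2 and Iglon5 were left out. The names were matched without regard to signal, but the gene family itself was selected on measured values, because Igh-VJ558 probes were among the largest falls from WT to KO in an earlier analysis of these arrays. The KO to WT differences of the members are therefore given as a description, with no test.

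The series held 4 one-colour arrays of total RNA, 2 from WT and 2 from KO mice, numbered 2 and 3 in each group (WT 2, WT 3, KO 2 and KO 3). The mice were on a C57BL/6 background, labelled male, operated on at 8 to 10 weeks of age, when the left anterior descending artery was tied off for good, and sampled at 7 days. The KO allele was a CRISPR/Cas9 deletion in the part of Kdm5b that encodes the JmjC demethylase domain, with a frameshift, and no uninfarcted samples were analysed here. Nothing in the labels says that the arrays came from separate mice. Xist and Ddx3y, given below, differed between the arrays of each group, so these were not repeats of the same RNA. The p-values measure only the spread between these samples, which includes that split.

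An antibody is built of paired heavy and light chains. The variable part of each chain is assembled in a developing B cell from V, D and J segments of the heavy locus or V and J segments of the kappa or lambda locus, and it binds antigen. The constant part of the heavy chain sets the class: mu and delta on naive B cells, and gamma, epsilon or alpha after class switching. Plasma cells make these chains in bulk, and the joining chain links IgM and IgA molecules into polymers. In a whole ventricle the transcripts come from the B lineage cells present, and fewer such cells cannot be told apart from less RNA per cell.

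All levels below are log2 processed signal minus the 75th percentile of the same array, so that 0 is a bright probe and each step of 1 is a doubling. Where array names are left out, values follow the order WT 2, WT 3, KO 2 and KO 3. The 2 Kdm5b probes, which check the genotype, read -0.87 and -2.43 (WT 2), -1.81 and -3.40 (WT 3), -2.40 and -4.35 (KO 2) and -2.26 and -3.86 (KO 3), lower on both KO arrays. Whether they lie in the deleted part was not determined. Xist, transcribed from an inactive X chromosome, was bright on both arrays numbered 2 (4.36 for WT, 4.0 for KO) and dark on both numbered 3 (-8.01 and -7.78). Ddx3y, a gene of the Y chromosome, did the opposite, with -7.65 and -7.62 on the arrays numbered 2 and 1.95 and 1.65 on those numbered 3. The number thus goes with this split, which goes against the label of male for the arrays numbered 2, and every result is also given within each number. The KO arrays lay at opposite ends in their cell type markers. KO 2 had the highest mean of 8 cardiomyocyte genes and the lowest mean of 8 macrophage genes. KO 3 had the lowest mean of the cardiomyocyte genes and the highest mean of the macrophage genes. Position on the slide (WT at positions 1 and 2, KO at 3 and 4) and genotype cannot be told apart.

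The class of each probe was taken from its position on build mm9 where the files gave one, because names and positions disagreed for 8 of the 44 probes. The constant genes of the heavy locus on chromosome 12 lie in the order alpha, epsilon, gamma, delta and mu, followed by the variable segments. Of the 11 probes named Igh-VJ558, after a family of variable segments, 4 lay beyond the epsilon probe on the side of alpha. In the RefSeq gene order of assembly GRCm38.p6, Igha is the gene next to Ighe on that side. The probe named Ighv14-2 lay in the constant region and was described in the files as delta chain, the probe named Ighg lay among the variable segments, and 2 of the 8 Iglv1 probes lay in the lambda constant region. By position there were thus 7 heavy constant probes, 11 heavy variable, 14 kappa (all variable), 2 lambda constant, 6 lambda variable or spanning the join between V and J, 2 surrogate light chain (Igll1) and 2 joining chain (Igj) probes.

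The probe sequences that separate the results are printed here from the files, 60 bases each and on the minus strand of chromosome 12 (mm9). The first 3 are the bright probes named Igh-VJ558 on the alpha side, at chr12:114496985-114497044, chr12:114497123-114497182 and chr12:114497243-114497302. The next is the probe described as gamma polypeptide, at chr12:114544665-114544724, and the last 2 are probes for constant mu, at chr12:114659100-114659159 and chr12:114659630-114659689. None of these 6 shared a run of more than 11 bases with any other immunoglobulin probe.
A_51_P509679: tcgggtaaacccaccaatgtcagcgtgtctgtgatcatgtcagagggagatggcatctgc
A_51_P187645: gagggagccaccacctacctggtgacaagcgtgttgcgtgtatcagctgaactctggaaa
A_51_P180159: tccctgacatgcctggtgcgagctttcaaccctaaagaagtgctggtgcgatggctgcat
A_52_P74106: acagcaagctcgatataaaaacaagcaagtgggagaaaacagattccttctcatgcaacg
A_52_P571419: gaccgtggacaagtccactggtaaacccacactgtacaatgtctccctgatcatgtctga
A_51_P485421: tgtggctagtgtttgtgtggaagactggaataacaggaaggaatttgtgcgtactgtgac

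Probes in the variable region, in contrast, shared sequence. The following Igh-VJ558 probes are shown because their readings parted although their sequences overlap: A_52_P562158 at chr12:117072253-117072312, A_52_P686392 at chr12:117190820-117190879 and A_52_P151887 at chr12:117190823-117190882. Capitals mark the longest run that the first and the last have in common (27 bases), and in the middle one the run of 35 bases that it has in common with the last. Of the 44 members, 6 formed 5 pairs sharing a run of 20 bases or more, so that such probes are not separate measurements of separate segments.
A_52_P562158: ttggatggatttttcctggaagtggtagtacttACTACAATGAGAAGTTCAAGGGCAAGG
A_52_P686392: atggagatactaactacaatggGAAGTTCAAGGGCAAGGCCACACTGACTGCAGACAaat
A_52_P151887: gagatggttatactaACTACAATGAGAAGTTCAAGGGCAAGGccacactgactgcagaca

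Immunoglobulin signal was lowest on KO 2 for most members, and on KO 3 it was as high as on WT 3 or higher for most. Of the 44 probes, 23 were well above background on all 4 arrays and 7 on none, and 33 met the filter for the fit, which asked for both arrays of at least 1 group. Of those 33, 10 passed through the WT arrays alone and 0 through the KO arrays alone. A member that passed only where it was high had to differ, so the counts below describe the probes and support nothing. Over the 33 probes the WT medians were -1.07 (WT 2) and -2.47 (WT 3), and the KO medians -4.26 (KO 2) and -1.28 (KO 3). WT 2 was above WT 3, and KO 3 lay between the WT arrays.

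The fit across all 28304 tested probes called 0 at an adjusted p under 0.05 with a fold change over 2 (limma, Benjamini-Hochberg; background 0%), none of them an immunoglobulin probe, while 410 had an unadjusted p under 0.05. With 2 arrays against 2, an exact two-sided permutation test cannot go below 0.333. KO was lower by more than 2-fold at 20 of the 33 tested members (60.6%) and higher at 2 (6.06%), against 2.35% and 1.0% of all tested probes, counts from the contrast on which the family was chosen. The groups did not overlap at far fewer: the pair of KO readings was below the pair of WT readings at 4 members (12.1%), near the 10.9% of all tested probes, and above them at 1 (3.03%), against 13.1%. The median difference over the 33 was -1.24, against 0.02 over all tested probes. It rested on KO 2: without that array the median was 0.26, with 4 members lower and 9 higher by more than 2-fold (3.33% and 3.76% of all probes then tested). Without WT 2, 11 were lower (5.14%). With normexp background correction the median was -0.47, with 5 lower (0.445%).

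Within the array numbers the direction turned. KO 2 was lower than WT 2 by more than 2-fold at 29 of the 33 (87.9%; 8.84% of all tested probes) and higher at 1 (3.03%; 6.19%). KO 3 was lower than WT 3 by more than 2-fold at 4 (12.1%; 1.78%) and higher at 12 (36.4%; 2.23%). The median difference was -3.35 at number 2 and 0.92 at number 3, and 26 of the 33 (78.8%, against 27.2% of all tested probes) were lower at number 2 and higher at number 3. Over the 23 probes well above background on every array, the medians were -3.03 and 0.94. Of these, 19 were lower by more than 2-fold at number 2, and at number 3, 3 were lower and 9 higher, against 6.83%, 1.14% and 1.73% of all probes well above background on every array.

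**Figure D1:**
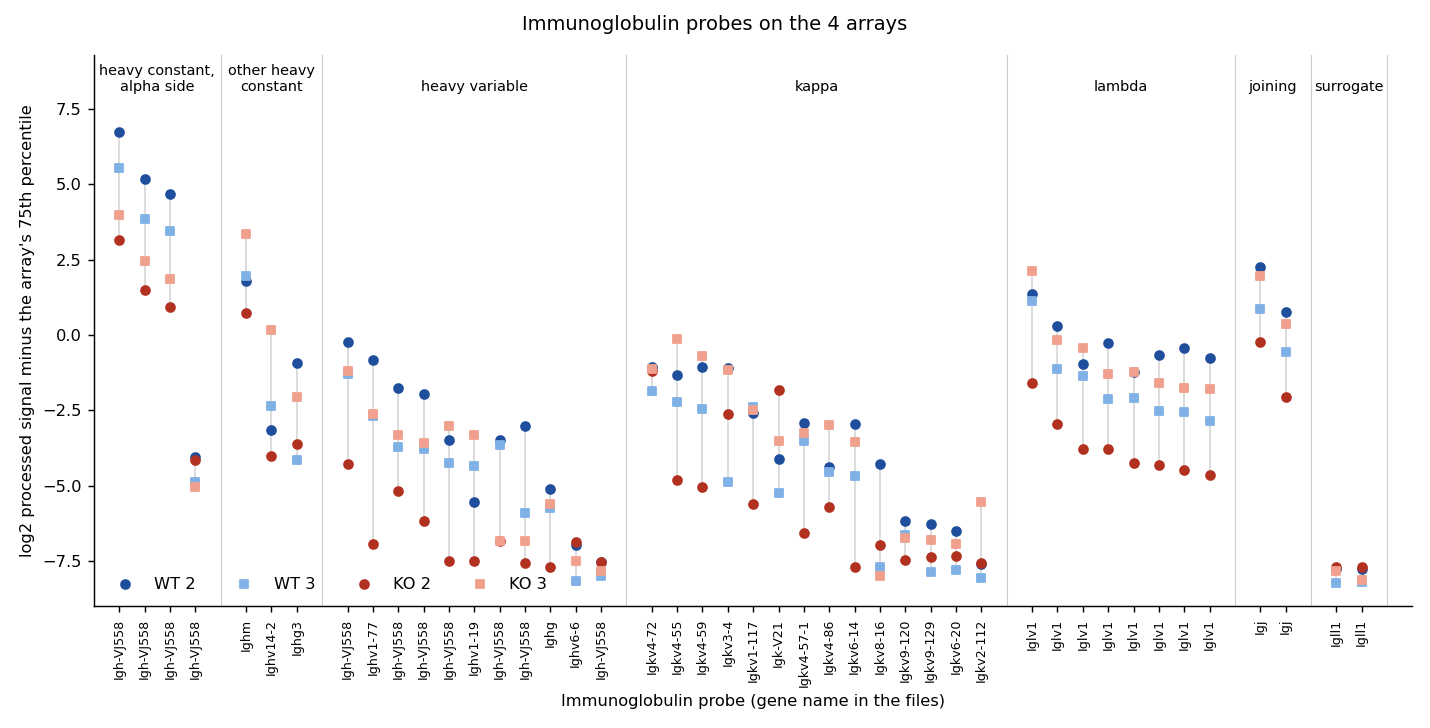
Each column is an immunoglobulin probe, grouped by class and ordered by its mean, and the vertical axis is its log2 processed signal minus the array's 75th percentile on each of the 4 arrays (blue WT, red KO; circles number 2, squares number 3; no error bars, since each point is 1 array). KO 2 is the lowest array for 30 of the 44 probes, and in 3 of the 4 alpha side probes both KO arrays lie below both WT arrays.

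Among the heavy chain constant probes, the bright probes on the alpha side were lower on both KO arrays. A_51_P509679 read 6.74 (WT 2), 5.54 (WT 3), 3.15 (KO 2) and 3.97 (KO 3). A_51_P187645 read 5.17, 3.85, 1.51 and 2.45 in the same order, and A_51_P180159 read 4.69, 3.46, 0.92 and 1.84. In all 3 the KO arrays lay below the WT arrays without overlap. The differences of the group means were -2.57 (SE 0.57), -2.53 (SE 0.62) and -2.69 (SE 0.60, n = 2 and 2), or folds of 5.95, 5.77 and 6.46. They measured -3.58, -3.66 and -3.77 at number 2, and -1.56, -1.40 and -1.62 at number 3. The 3 probes lie within a single stretch and are 3 readings of what may be 1 transcript, not 3 results. The dim probe of the alpha side, A_51_P270661 at chr12:114503159-114503217, read -4.04 and -4.88 on the WT arrays and -4.13 and -5.05 on the KO arrays, a difference of -0.14.

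The other members of the constant region were not lower on both KO arrays. Ighm, the mu chain of IgM, read 1.80 (WT 2), 1.94 (WT 3), 0.72 (KO 2) and 3.34 (KO 3). Its KO values lay on either side of WT, with a difference of 0.16 (SE 0.98). The delta chain probe named Ighv14-2 read -3.16, -2.34, -4.0 and 0.15 in the same order, highest on KO 3, with a difference of 0.83 (SE 1.56). Ighg3, a gamma chain of IgG, read -0.93, -4.14, -3.62 and -2.06, so that WT 2 and WT 3 were farther apart than the group means, which differed by -0.30 (SE 1.32). All 3 were lower on KO 2 than on WT 2, with differences of -1.08, -0.84 and -2.69, and higher on KO 3 than on WT 3, by 1.39, 2.5 and 2.09. Without KO 3 the difference of Ighm became -1.15.

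Other probes of the same region were missed by the name rule. The files name them by transcript accession only, and they were looked at after the values of the named probes were known. The gamma polypeptide probe A_52_P74106, which lies between the gamma 2C and gamma 1 probes, where RefSeq places Ighg2b, read 1.22 (WT 2), 1.29 (WT 3), -4.82 (KO 2) and -1.95 (KO 3). Its WT readings were alike and both KO readings far below, with differences of -6.05 at number 2 and -3.24 at number 3, and its mean difference of -4.64 (SE 1.07) was the lowest among all 28304 tested probes. The mu probe A_52_P571419 went the other way, at 1.53, 1.59, 3.42 and 5.43, a difference of 2.86 (SE 0.76), with both KO arrays above both WT arrays. The mu probe A_51_P485421 read -1.49, -1.23, -0.57 and 2.03, a difference of 2.09 (SE 0.98). Ighm, also a mu probe, departed from them at number 2, where its difference was -1.08 and theirs were 1.89 and 0.92. The Ighm probe lies apart from them, at chr12:114656861-114656920. Whether these mu probes read the same form of the transcript was not determined.

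Most of the remaining probes of the region were lower at number 2 and higher at number 3. The brighter gamma 2C probe read 0.93, -0.80, -1.17 and 1.88, the brighter gamma 1 probe (ENSMUST00000103420, A_51_P461067) -2.96, -1.25, -7.60 and -0.47, and the epsilon probe -2.79, -5.32, -3.39 and -4.61, with overlapping groups in each. Of the 17 probes between the alpha side and mu, only the 3 bright alpha side probes and the gamma polypeptide probe were lower on both KO arrays by more than 2-fold within each number. Of all tested probes, 8.84% were lower by more than 2-fold at number 2 and 1.78% at number 3, and the share lower at both was not counted. The alpha side probes carry the name Igh-VJ558, on whose falls the family was chosen, so this count is a description only.

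**Figure D2:**
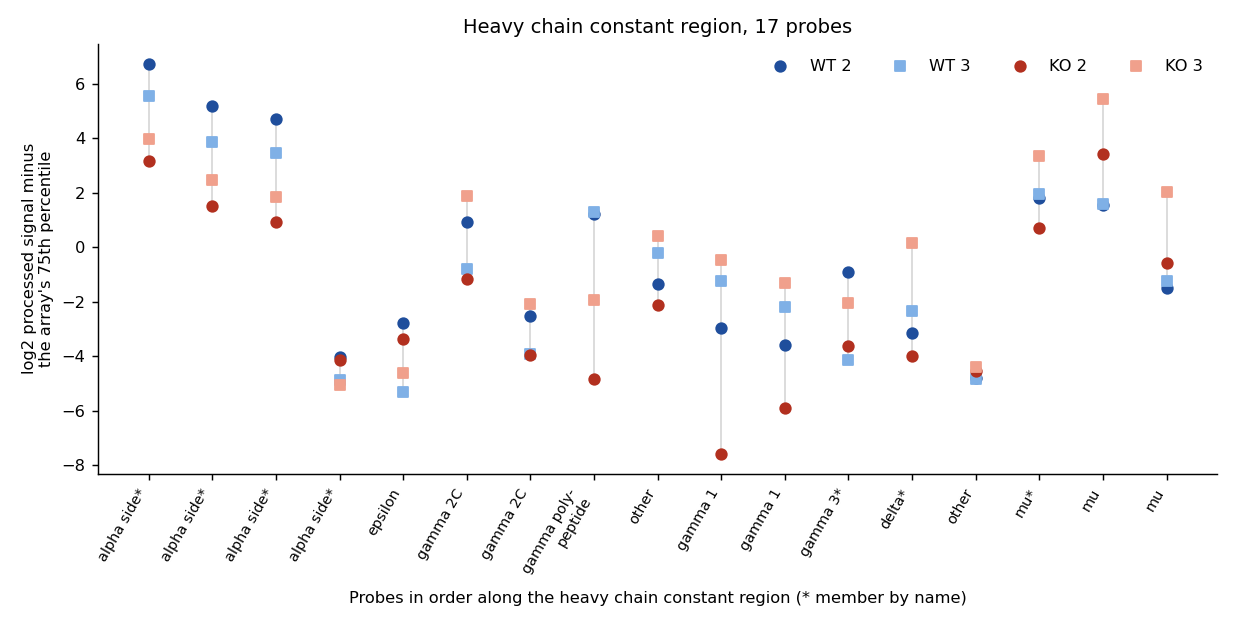
The 17 probes of the heavy chain constant region are set in their order along chromosome 12, not to distance, with the log2 processed signal minus the array's 75th percentile on the vertical axis and 1 point per array (blue WT, red KO; circles number 2, squares number 3). The leftmost 3 and the gamma polypeptide probe have both KO points below both WT points, while the 2 rightmost mu probes have both KO points above.

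The heavy variable probes were low on KO 2 but not on KO 3. The 7 that were tested had a median of -1.97 (WT 2), -3.72 (WT 3), -6.83 (KO 2) and -3.32 (KO 3), and only 1 was well above background on KO 2, against 6 on KO 3. That probe, A_52_P139027 of the Igh-VJ558 family, read -0.24, -1.31, -4.27 and -1.20, so that KO 3 matched WT 3 closely and KO 2 lay far below. Ighv1-77 showed the widest gap of any member at number 2, at -0.84 on WT 2 and -6.94 on KO 2, while WT 3 and KO 3 read -2.68 and -2.62. A_52_P686392 and A_52_P151887, whose sequences are shown above, followed the same pattern, with differences of -4.19 and -3.41 at number 2 and 0.21 and 0.40 at number 3.

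A_52_P562158 departed from it. It read -3.48 on WT 2 and -3.64 on WT 3, and -6.83 and -6.84 on KO 2 and KO 3, where it was not well above background, so that its change has only a bound. On the processed signal, with the KO arrays set at their lowest reading well above background, WT was at least 4.18-fold higher. The measured group means differed by -3.27 (SE 0.21), an SE that rests partly on KO readings at background. The bound holds for the processed signal only. With normexp background correction the difference was -0.51, smaller than the bound. Its longest run in common with A_52_P151887, which KO 3 measured at -3.32, was 27 of 60 bases.

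The kappa probes, all for variable segments, moved in both directions. Of 14, 9 were tested and 5 were well above background on all arrays. Igkv4-55 read -1.32 (WT 2), -2.22 (WT 3), -4.81 (KO 2) and -0.13 (KO 3), and Igkv4-59 read -1.07, -2.47, -5.06 and -0.69. Both were lowest on KO 2 and highest on KO 3. Igkv4-72 hardly moved, at -1.07, -1.87, -1.18 and -1.13. Igkv3-4 was dimmest on WT 3, at -1.11, -4.89, -2.61 and -1.15, which gave a mean difference of 1.12 (SE 1.49) from opposite signs of -1.5 and 3.73 within the numbers.

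Igk-V21 was the single tested member that was higher on both KO arrays than on both WT arrays. It read -4.12 (WT 2), -5.23 (WT 3), -1.82 (KO 2) and -3.52 (KO 3), a difference of 2.01 (SE 0.77), with 2.31 at number 2 and 1.71 at number 3. It was also the only tested member for which KO 2 was the highest array.

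The lambda probes moved as a block. All 8 carry the name Iglv1, were well above background on every array, were lower on KO 2 than on WT 2, with differences from -4.06 to -2.81, and were higher on KO 3 than on WT 3, by 0.79 to 1.05. The brightest, A_51_P503756 in the constant region (chr16:19061826-19061885), read 1.37, 1.14, -1.58 and 2.13. The next constant probe, A_52_P450277, read -0.97, -1.38, -3.77 and -0.44, and A_51_P503757, which spans the join between V and J, read 0.29, -1.12, -2.96 and -0.16. The unplaced probe A_52_P450276, at -0.43, -2.56, -4.49 and -1.77, had the largest mean difference of the block, -1.64 (SE 1.28). The WT arrays were closer to each other for the 2 constant probes, with medians of 0.20 on WT 2 and -0.12 on WT 3, than for the other 6, with medians of -0.54 and -2.33.

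The joining chain followed the lambda block. Its 2 probes read 2.24 and 0.77 (WT 2), 0.86 and -0.57 (WT 3), -0.24 and -2.06 (KO 2) and 1.96 and 0.37 (KO 3). KO 2 was the lowest array for both, KO 3 lay between the WT arrays, and the mean differences were -0.69 (SE 0.97) and -0.95 (SE 1.03). Igll1, part of the surrogate light chain of pre-B cells, was not well above background on any array for either probe.

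Set side by side, the segments and chains differed less than the arrays did. Over tested probes the median KO to WT difference was -0.94 for the 9 constant probes and -1.38 for the 22 variable probes, and -1.73 for the 14 heavy and -1.11 for the 17 light chain probes. Within number 2 these medians were -2.81 and -3.52 for constant and variable, and -3.50 and -3.25 for heavy and light chains. Within number 3 they were 0.93 and 0.84, and 0.12 and 0.96. The order of the constant and variable medians turned without WT 2, to a difference of -0.16, and that of heavy and light turned, to 0.14, with 1 value per gene name. Read by gene name alone, with 3 constant and 28 variable probes tested, the constant median became -0.30 and the variable median -1.38, with 8 probes placed otherwise than by position. By position, all 9 constant probes were well above background on every array, but only 12 of the 22 variable probes. The others passed the filter through the WT arrays alone. Over probes well above background on every array the medians were -0.94 for constant and -1.12 for variable. They were -1.13 for the 8 heavy and -1.09 for the 13 light chain probes.

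**Figure D3:**
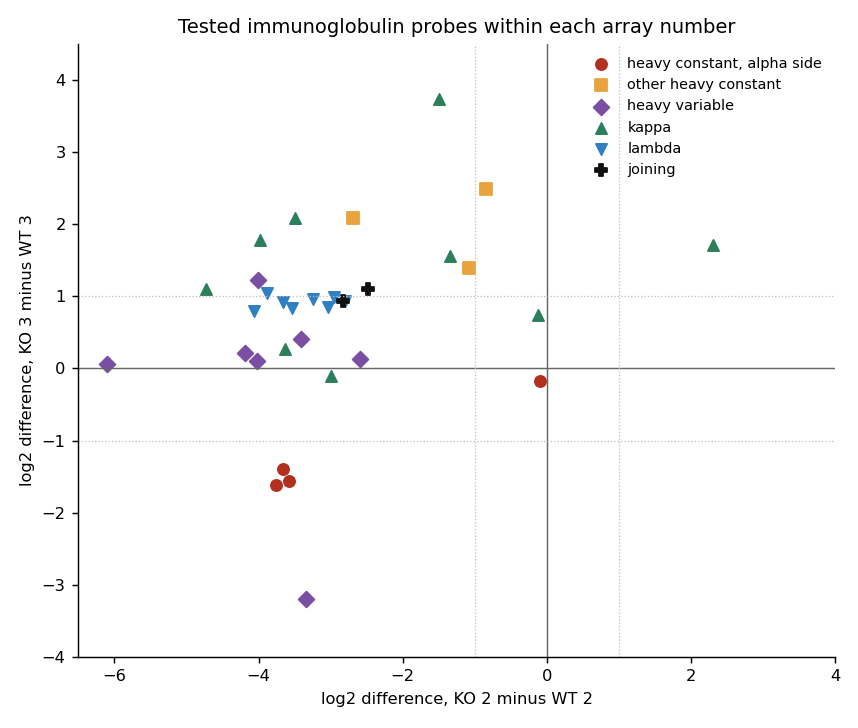
Each point is 1 of the 33 tested immunoglobulin probes, with its log2 difference KO 2 minus WT 2 on the horizontal axis and KO 3 minus WT 3 on the vertical axis, and dotted lines at a 2-fold change. Most points lie at the upper left, lower at number 2 and higher at number 3, and 3 alpha side probes and A_52_P562158 lie at the lower left, lower by more than 2-fold at both.

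Outside the name rule, 110 further probes were described in the files as an immunoglobulin chain, and 72 of them were tested. Their median difference was -0.97, with -2.72 at number 2 and 0.57 at number 3, and some share sequence with the named probes. Over the 39 well above background on every array the median was -0.40, and over the 72 with normexp background correction it was -0.11. Lower on both KO arrays than on both WT arrays were 16 of the 72 (22.2%, against 10.9% of all tested probes), and higher 3 (4.17%, against 13.1%). Of the 72, 71 were well above background on WT 2, WT 3 and KO 3 each, but 40 on KO 2. Many thus passed the filter through the WT arrays alone. Among the 39 on every array, 6 were lower on both KO arrays, against 10.1% of all such probes, and 2 higher, against 13.1%. After the gamma polypeptide probe, the lowest of the 72 was the heavy chain probe L48666, at -1.96, -3.66, -7.18 and -3.92. Next was ENSMUST00000103331 (a kappa variable probe), at -2.78, -3.65, -6.88 and -4.65. The heavy variable probe X78107, well above background on the KO arrays only, read -6.25, -8.22, -5.01 and -5.18. On the processed signal KO was thus at least 1.5-fold higher. AF303856 was well above background on the WT arrays only, where it was at least 2.65-fold higher on the same signal. Without KO 2 the median of the 72 was 0.28.

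Genes that mark B cells were read from 1 probe per gene. The 17 tested of 19 B cell identity genes had a mean level of -2.64 (WT 2), -2.26 (WT 3), -3.89 (KO 2) and -1.0 (KO 3), lowest on KO 2 and highest on KO 3. Of the 17, 0 were called, 0 passed a 2-fold change in either direction, and the median difference was 0.06, which became -1.64 without KO 3 and -0.24 without WT 2. Cd79b, a signalling partner of the B cell receptor, read 0.16, 0.58, -1.10 and 2.11. Ms4a1, which encodes CD20, read -2.78, -1.84, -4.26 and 0.83. Cd79a was dim at -4.61, -4.65, -5.06 and -3.79, and Pax5, the factor that maintains B cell identity, was not tested. The 10 receptor signalling genes were all lower in KO on average, with a median difference of -0.42 and 0 past 2-fold. All were lower on KO 2 than on WT 2 (median -1.14) and higher on KO 3 than on WT 3 (median 0.30).

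As a list, plasma cell genes moved less within the numbers. Their median was -0.95 at number 2 and 0.25 at number 3, against -1.26 and 1.39 for the B cell identity list. Single genes ranged widely at number 2, from -3.21 for Irf4 to 0.38 for Tnfrsf17. The 13 tested had a mean of -0.55 (WT 2), -0.83 (WT 3), -1.58 (KO 2) and -0.45 (KO 3), with a median difference of -0.25 and 0 called, and 0.29 without KO 2. Mzb1, a chaperone of antibody secreting cells, read -0.88, -2.29, -2.56 and -1.12. Sdc1 (CD138) read 0.88, 1.06, -1.14 and 1.30, while Prdm1, at -1.71, -1.84, -2.39 and -1.58, and Xbp1, at 1.45, 1.68, 1.06 and 1.69, moved little, with differences at number 2 of -0.67 and -0.40. Tnfrsf17, the receptor BCMA, read -4.55, -6.12, -4.17 and -4.77. Irf4 passed 2-fold, at -4.0, -5.59, -7.21 and -4.88, lowest on KO 2.

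The 5 tested genes of V(D)J recombination had a median difference of 0.05, the 3 of class switching 0.11 and the 4 B cell trophic factors -0.12. Rag1 and Rag2, which cut the V, D and J segments, were not well above background on any array. Ung, a repair enzyme of switching, read -0.19, -1.82, 1.20 and -1.17. Cxcl13, the chemokine that draws B cells into follicles, read -4.35, -4.46, -5.37 and 1.31, high on KO 3 alone, where the B cell identity mean was also highest. Of the 8 tested genes for antibody receptors and transport, 7 were lower in KO on average, with 0 past 2-fold and a median of -0.57. Their median was -1.36 at number 2 and 0.03 at number 3. None of these lists held a called gene.

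Markers of other cell types moved with the array as well. KO 2 had the lowest mean of the macrophage list (2.06, against 3.32, 3.73 and 4.08 on WT 2, WT 3 and KO 3), of the neutrophil list (-2.26, against -0.02, 0.69 and 0.85), of the T cell list (-4.54, against -2.26, -2.65 and -2.71) and of the fibroblast list (6.63, against 7.45, 7.29 and 7.35). It had the highest mean of the cardiomyocyte list (7.70, against 6.74, 5.70 and 4.88). Of the 8 T cell genes, 4 were lower in KO by more than 2-fold, against 2.35% of all tested probes, and 1 was higher on average (Cd4, by 0.16). The largest falls were those of Cd8a, by 2.35 as a log2 value, and Cd3d, by 2.18. At number 3 these genes differed by only -0.76 and -0.19, and Cd8a was well above background on only 1 KO array. The part of these shifts in the immunoglobulin differences was not tested.

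**Figure D4:**
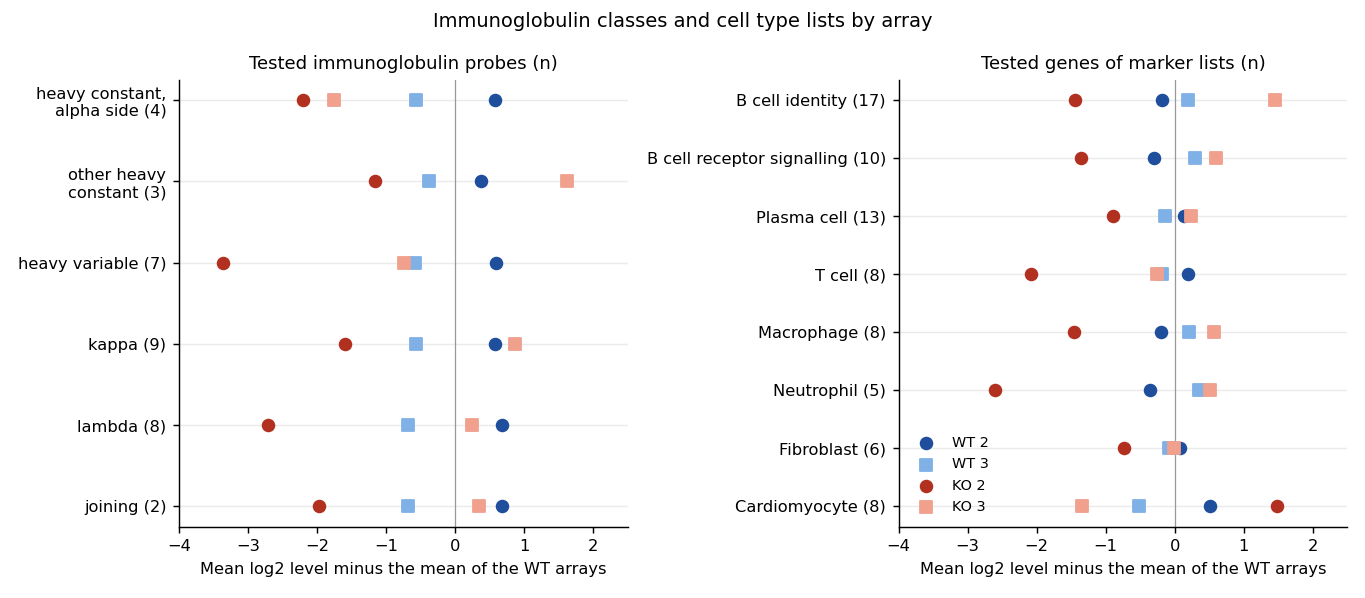
Each row is a class of tested immunoglobulin probes (left) or the tested genes of a marker list (right), with the number of probes or genes in parentheses, and each point is the mean log2 level on 1 array minus the mean of the WT arrays (blue WT, red KO; circles number 2, squares number 3). KO 2 is the lowest point in every immunoglobulin row and the highest in the cardiomyocyte row, at 1.48, and KO 3 lies at -1.76 in the alpha side row and at 1.45 in the B cell identity row.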

How the data were processed

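Per the labels and the study's methods, total RNA was labelled with Cy3, hybridised to Agilent Whole Mouse Genome arrays and read with Feature Extraction 10.7. The authors deposited the scanner intensity of every spot, background-subtracted and detrended by that software, and a table of log2 values, which matched quantile-normalized log2 intensities within 0.01 at 99.90% to 99.96% of probes (column medians 6.78) and which served as an alternative. Coordinates are those of the files (mm9).

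Spots of a probe were averaged on the log2 scale without outlier spots (92 to 116 of 43379 per array; 0 saturated), and the 75th percentile of each array (607.6 to 976.1 intensity units) was subtracted as a log2 value. The share of probes well above background ran from 68.15% to 72.04%, and the number of arrays limits the precision. Probes that 1 group or both measured well above background on each of its arrays were fitted with limma 3.58.1 in R 4.3.3 (lmFit, eBayes, Benjamini-Hochberg) with calls made where the fold change passed 2 and the adjusted p was under 0.05, and the fit was tested on simulated data. The SE values are those of the fit, and a list gene with several probes took the brightest tested one.

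Members and lists were chosen with earlier results of these data known. Named were Kdm5b, the 3 brightest probes per class and the 5 largest rises and falls among members well above background on all arrays, probes well above background in 1 group only, the 3 largest rises and falls outside the name rule, B lineage defining genes, and list genes past 2-fold. Others (Ighv1-77, Ighg3, A_51_P270661, the printed VJ558 pair, gamma 1, gamma 2C, epsilon, Cd8a, Cd3d, Rag1 and Rag2) were named after their values were seen, and some genes of the rule are not reported here. Alternatives covered background correction (normexp, offset 50), normalization, filters, the authors' table, a replicate block, the methods' test, 1 value per name, a wider name rule and each array left out.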

Additional observations from a re-analysis of the deposited data

Results flagged for a closer look

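The lambda probes and the joining chain probes moved in opposite directions within the array numbers. The median over the 8 lambda probes was -3.39 for KO 2 minus WT 2 and 0.93 for KO 3 minus WT 3. Over the 2 joining chain probes it was -2.66 and 1.02. Every probe of both sets was lower at number 2 and higher at number 3. Each number holds 1 array per genotype, so the difference between the numbers was not tested.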

How the results depend on the processing

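With 2 arrays per group, 1 array decides most values. Leaving out each array in turn, the median difference of the members (-1.24) ran from -2.72 to 0.26, positive without KO 2. The number lower by more than 2-fold (20) ran from 4 to 29 and the number higher (2) from 1 to 9. Constant minus variable (0.44) ran from -0.16 without WT 2 to 0.99, heavy minus light (-0.63) from -0.97 to -0.28, the B cell identity list (0.06) from -1.64 without KO 3 (-0.24 without WT 2) to 1.44, the plasma cell list (-0.25) from -0.97 to 0.29 without KO 2, the probes outside the name rule (-0.97) from -1.98 to 0.28 without KO 2, and Ighm (0.16) from -1.15 without KO 3 to 1.47. With normexp background correction, which moved the median of all tested probes from 0.02 to 0.13, the members' median was -0.47. Then 5 members were lower and 1 higher by more than 2-fold, against 0.445% and 0.293% of all tested probes. Constant minus variable was 0.011, heavy minus light -0.041, the probes outside the name rule -0.11 and A_52_P562158 -0.51 (from -3.27). Over probes well above background on all arrays, 11 members were lower by more than 2-fold, against 1.17% of all such probes. Constant minus variable was then 0.19, heavy minus light -0.042 and the probes outside the name rule -0.40. With 1 value per gene name, constant minus variable was 0.93 and heavy minus light 0.14. With segments read from gene names alone, an alternative chosen after seeing the data, constant minus variable was 1.07. The methods' t-test, unadjusted and with a fold change over 2, called 88 probes, 1 of them an immunoglobulin probe, against 0 after adjustment. With the replicate number as a block, 0 probes were called and 602 had an unadjusted p under 0.05, against 410 without it. Deviations of arrays with the same number correlated at 0.57, and with 2 arrays per group the crossed value is -0.57 by construction, so the pairing rests on a shared number and the block changed no call. The cause of these changes was not tested. The 3 bright alpha side probes, the gamma polypeptide probe, both further mu probes and A_52_P562158 kept their direction under each alternative run on them, though not their size. Most of this was fixed in advance. The groups did not overlap at these probes, so leaving out an array could not turn the direction. The block, the other eBayes settings and the filters leave the difference itself unchanged. Only the alternatives of background correction and normalization, with the authors' table, could have turned it. Signal close to background on KO 2 limits the heavy variable and kappa probes.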
